A study of Saccharomyces cerevisiae with 312 samples.

Results

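The budding yeast actin cytoskeleton is described here through 6 pool strains, mutant in SAC6, CAP1, CAP2, MYO5, ABP1 and SLA1. They were chosen by name, as the array features annotated with these symbols, and all 6 of 6 were measured among the 4125 strains of the pool. Genetic interaction mapping crosses 1 query mutation into a pool of barcoded mutant strains and compares the level of every barcode in the double mutant pool with that in a reference pool. The series held 312 arrays of 304 screens with 154 query mutations, many of them in genes of RNA and protein synthesis and degradation. Of the 154, 139 were deletions, 11 DAMP alleles (a destabilised transcript) and 4 TETO2 alleles (a repressible promoter). Every pool, query and reference alike, was grown for 18 generations under selection with G418 and nourseothricin. The reference was a mix of deletions on 252 arrays, a YEL068C deletion on 59 and a YPR014C deletion on 1. The pool is the same in all screens, each query is 1 mutant, and nothing in the labels says whether repeat screens of a query were separate crosses.

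In yeast, branched actin filaments assemble at cortical patches, the sites of endocytosis. The Arp2/3 complex nucleates them, a coat and its adaptors choose the site, type I myosins push, capping protein stops growth at the fast-growing ends, and bundling proteins hold the filaments together. Actin itself is folded by a chaperonin that receives it from prefoldin. Patches are concentrated in the growing bud, where the cell wall is laid down.

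The 6 strains cover these roles. SAC6 (YDR129C, chromosome IV) encodes fimbrin, which bundles filaments. CAP1 (YKL007W, chromosome XI) and CAP2 (YIL034C, chromosome IX) encode the alpha and beta subunits of capping protein. MYO5 (YMR109W, chromosome XIII) encodes a type I myosin. ABP1 (YCR088W, chromosome III) encodes a filament-binding activator of the Arp2/3 complex, and SLA1 (YBL007C, chromosome II) an adaptor of the endocytic coat. The SAC6, ABP1 and SLA1 strains were each read by 4 array features, MYO5 by 2, and CAP1 and CAP2 by 1 each, because the other feature of CAP1 had a value on only 6 arrays and that of CAP2 on 37. Features of the same strain correlated over the arrays, with r of 0.91 to 0.99 for SAC6, 0.9 to 0.99 for SLA1, 0.84 to 0.96 for ABP1 and 0.82 for MYO5. No such check exists for CAP1 and CAP2.

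Values are log2 ratios of query over reference, so a negative value means fewer double mutant cells of that strain than in the reference pool. Growth was not measured on its own. On the 17 arrays of 2 reference pools the strains near the query locus had positive values, opposite to the other arrays, and these arrays were turned in sign. Of the pairs named here, only SLA1 in UBP8 rests on turned screens alone, and MTC4 and ADD37 have 1 turned screen each. Queries within 100 genes of a strain's own locus were left out for it (4 to 7 queries per strain), and 140 queries with at least 2 screens were tested. A pair was called lower or higher where its adjusted p was under 0.05 and its mean reached -1 or 1. The error of a pair comes from the strain's spread in all its queries, and the residual SD was 0.93 for SAC6, 0.756 for SLA1, 0.422 for CAP2, 0.402 for ABP1, 0.382 for CAP1 and 0.269 for MYO5, against a median of 0.373 over strains. SAC6 had no value in 31 of its 233 screens against the mixed reference and in 0 of 58 against YEL068C, which left 112 queries to test. Its missing values fell in 4 of 28 reference pools, and 2 pools gave none at all.

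The query mutations include a member of the set, CAP1. In the CAP1 deletion screen, SAC6 stood at -7.38, the rank of 2 from the lowest among 3833 strains. Its 4 features read -7.76, -7.33, -6.84 and -7.61. The strain below it was RVS167, whose product is an amphiphysin-family membrane-bending protein of the patch, at -7.95. Loss of fimbrin together with capping protein is a textbook lethal combination in yeast. The partner subunit's strain, CAP2, had a value of -1.22, rank 78 from the lowest. MYO5 had 1.85, rank 6 from the highest, with 1.84 and 1.86 on its 2 features. ABP1 (-0.05) and SLA1 (0.22) lay near the median of 0.01. The SD over strains was 0.53, with 3.34% of strains under -1, 0.391% under -2 and 2.03% over 1. The screen was made once, so these values have no replicate check and no test.

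**Figure D1:**
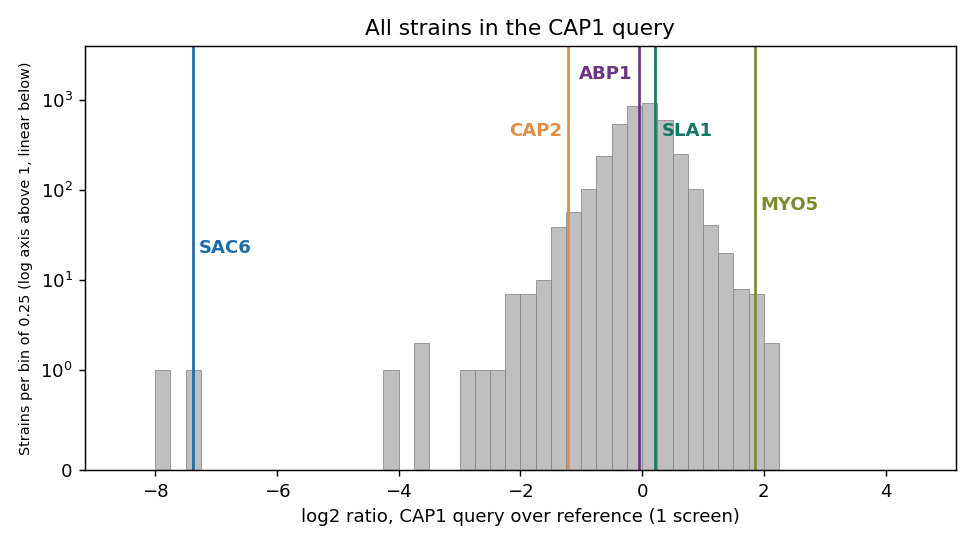
Number of strains (vertical axis, logarithmic above 1) by log2 ratio in the CAP1 query (horizontal axis, bins of 0.25, 1 screen), with a vertical line at each of the 5 measured actin strains. SAC6 lies at -7.38, apart from the bulk around 0.01, MYO5 is at 1.85 in the upper tail and CAP2 at -1.22 in the lower shoulder.

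Over the replicated queries the 6 strains gave 788 tested pairs, of which 44 were lower (5.58%) and 21 higher (2.66%). Over all strains and queries 2.37% of pairs were lower and 1.24% higher, and the median strain had 1 lower call. The share was uneven among the 6. SLA1 had 13 lower and 5 higher calls of 136 queries, ABP1 11 and 1 of 136, SAC6 7 and 4 of 112, CAP2 7 and 4 of 137, CAP1 4 and 5 of 134, and MYO5 2 and 2 of 133. Lower calls fell in 26 queries, and in 15 of these only 1 of the 6 strains was called lower. Most queries had 2 screens, and 28 of the 44 lower calls held without the first and 23 without the second; quantile normalization kept 30. SAC6 and SLA1 also varied most: the SD of their query means was 1.46 and 1.32, against 0.43 for MYO5 and a median of 0.35 over strains.

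**Figure D2:**
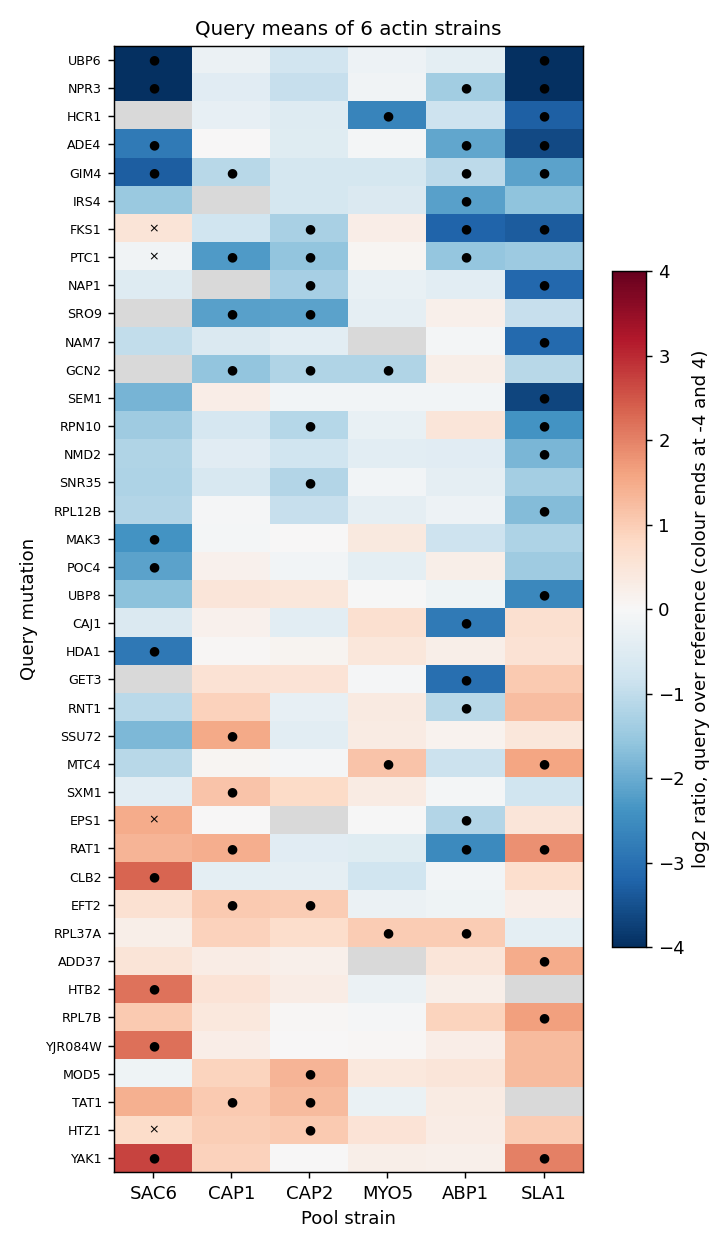
Query means (colour, log2 ratio of query over reference, ending at -4 and 4) of the 6 strains (columns) in the 40 queries (rows, ordered by the mean over strains) where at least 1 was called. Dots mark called pairs, crosses mark values from 1 screen, and grey marks no value or a linked locus. Dark blue cells gather in the SAC6 and SLA1 columns at UBP6 and NPR3, while the CAP1 and CAP2 columns share SRO9, PTC1 and GCN2.

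The bundler SAC6 and the coat adaptor SLA1 had their lowest values among the tested queries in UBP6. Ubp6 is a deubiquitinase that sits on the proteasome and recycles ubiquitin. SAC6 read -7.22 and -6.19 in the 2 screens, a mean of -6.70 ± 0.73 (SD, n = 2, adjusted p = 1.11e-15). SLA1 read -7.60 and -7.77, a mean of -7.68 ± 0.11 (SD, n = 2, adjusted p = 4.78e-27). The 8 feature readings of each strain lay between -7.49 and -5.57 for SAC6 and between -8.67 and -6.91 for SLA1. In the other screens against the same reference pools SAC6 ran from -2.67 to 3.11 and SLA1 from -1.81 to 2.28, so the UBP6 values lie outside both ranges. The other 4 strains were not called there: CAP2 had -0.76 ± 0.15, ABP1 -0.40 ± 0.42, CAP1 -0.25 ± 0.20 and MYO5 -0.21 ± 0.19 (SD, n = 2 each). The query lowered many strains, 12.0% of those tested, and among 4038 measured strains SLA1 was at rank 21 and SAC6 at rank 48 from the lowest. The SD over strains ran from 0.324 to 1.878 among arrays, and the values above are not scaled for it. After quantile normalization SAC6 was still called in UBP6, at -2.44 (limma, adjusted p = 0.00166). Its value in HDA1, -2.61, was then lower, so UBP6 was no longer its lowest tested query.

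NPR3, whose product restrains TORC1 signalling, and ADE4, which encodes the first enzyme of purine synthesis, were also low in both strains. In NPR3 SAC6 read -6.15 and -3.45 (mean -4.80, adjusted p = 3.73e-09) and SLA1 -5.79 and -4.80 (mean -5.30, adjusted p = 1.2e-15). In ADE4 SAC6 read -2.91 and -2.72 (mean -2.82, adjusted p = 0.00146) and SLA1 -3.06 and -4.16 (mean -3.61, adjusted p = 3.72e-08). ABP1 was lower in both as well, at -1.38 ± 0.48 in NPR3 and -2.09 ± 0.75 in ADE4 (SD, n = 2 each). CAP1, CAP2 and MYO5 were called in neither, with means from -0.91 to 0.03. These 2 queries were run against the same 2 reference pools and lowered 11.8% and 10.5% of all strains, so 3 of 6 called strains stand against a high background. SAC6 was no longer called in NPR3 without the first screen (adjusted p = 0.0675), or in ADE4 without either (0.189 and 0.136). Quantile normalization of the arrays ended the calls of SAC6 (adjusted p = 0.0788 in NPR3 and 0.232 in ADE4) and of ABP1 (-0.60 in NPR3 and -0.92 in ADE4). ABP1 lost ADE4 without the second screen (0.104) and NPR3 without either (0.337 and 0.0646), while SLA1 kept both calls without either screen.

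GIM4 encodes a subunit of prefoldin, the chaperone that hands actin and tubulin to the chaperonin. It was the query with the most calls in the set: 4 of 6 strains were lower, where 4.78% of all strains were. SAC6 read -3.87 and -2.75 (mean -3.31, adjusted p = 9.69e-05), SLA1 -2.62 and -1.64 (mean -2.13, adjusted p = 0.00367), CAP1 -1.38 and -0.87 (mean -1.12, adjusted p = 0.00246) and ABP1 -0.24 and -1.86 (mean -1.05, adjusted p = 0.0102). The ABP1 screens disagree, and its call is lost without the second screen (adjusted p = 1). Without the first, SAC6 (adjusted p = 0.182), SLA1 (0.0648) and CAP1 (0.145) were not called. CAP2 had -0.69 ± 1.32 and MYO5 -0.70 ± 0.48 (SD, n = 2 each), so all 6 means were below 0. In a fit that blocks on the reference pool the 4 calls held and SAC6 moved to -5.39, SLA1 to -3.56, CAP1 to -1.64 and ABP1 to -1.28. After quantile normalization the calls of CAP1 (-0.90) and ABP1 (-0.73, adjusted p = 0.0649) were lost.

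**Figure D3:**
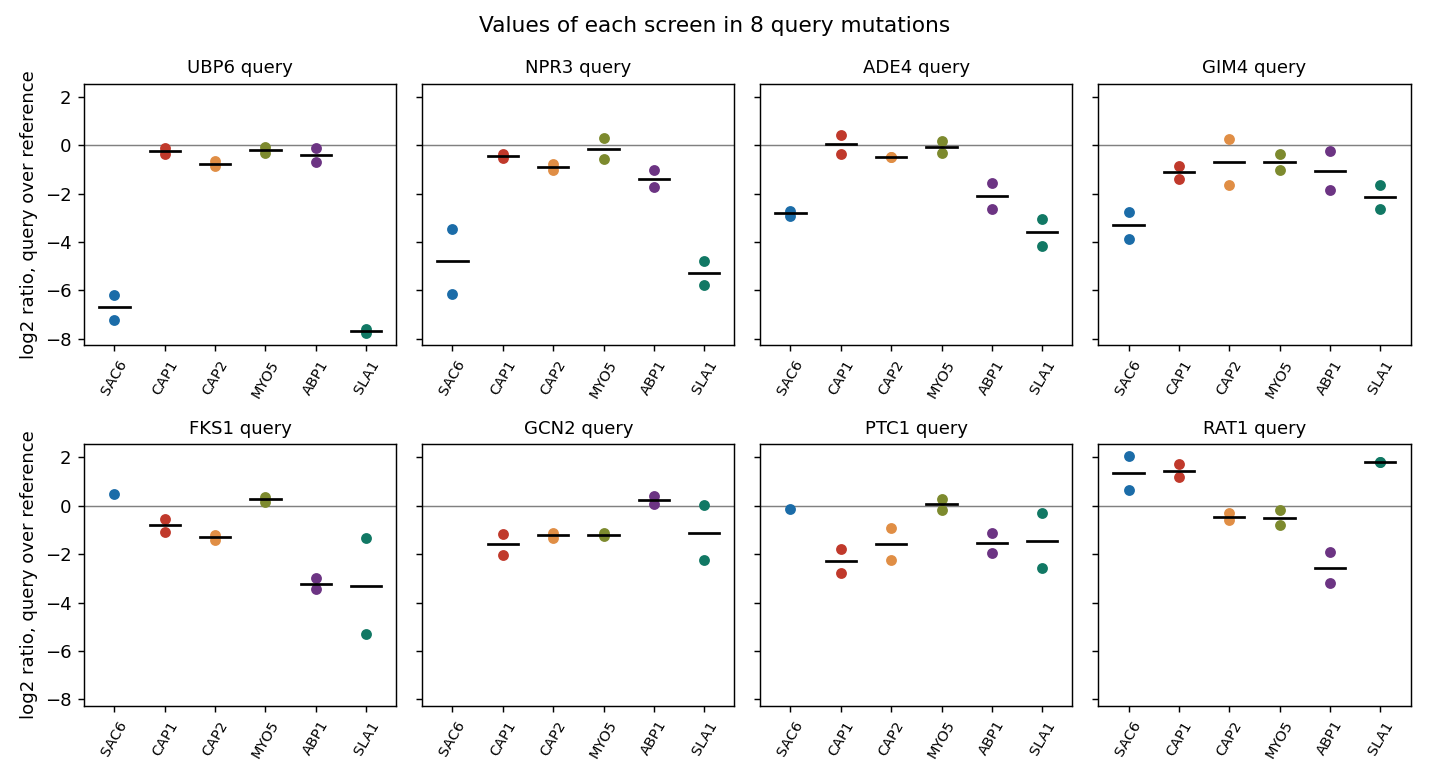
Log2 ratio of query over reference (vertical axis) in each screen (points) and their mean (bars, where 2 screens had a value) for the 6 strains in 8 queries: UBP6 and the 7 queries where at least 3 strains were called. In UBP6 the SAC6 and SLA1 points lie at -6.19 or below and the other 8 at -0.86 or above, in GIM4 all 6 means are below 0, and in RAT1 ABP1 lies below 0 while CAP1 and SLA1 lie above it.

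The 2 capping subunit strains were both lower in SRO9, PTC1 and GCN2, and SRO9 and PTC1 gave the lowest replicated values of each. In SRO9, which encodes an RNA-binding protein of the La-motif family, CAP1 read -2.12 and -2.24 (mean -2.18, adjusted p = 6.2e-11) and CAP2 -1.78 and -2.48 (mean -2.13, adjusted p = 6.61e-09). In PTC1, a type 2C protein phosphatase that acts on stress-activated kinases, CAP1 read -1.78 and -2.76 (mean -2.27, adjusted p = 1.04e-11) and CAP2 -0.93 and -2.23 (mean -1.58, adjusted p = 3.32e-05). In GCN2, the kinase that senses amino acid starvation, CAP1 read -2.01 and -1.16 (mean -1.58, adjusted p = 3.42e-06) and CAP2 -1.31 and -1.11 (mean -1.21, adjusted p = 0.00319). The lower background was 4.66% in SRO9, 6.38% in PTC1 and 2.84% in GCN2. SRO9, GCN2 and the amino acid permease query TAT1 are among 13 queries run against the same 2 reference pools, and none of them has a value with the pool block. CAP1 kept its call in all 3 without either screen. CAP2 kept it in SRO9, and lost it in PTC1 without the second screen (adjusted p = 0.292) and in GCN2 without either (0.162 and 0.0738).

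Higher calls were shared too. EFT2, an elongation factor 2 gene, gave 1.05 ± 0.48 in CAP1 and 1.01 ± 0.30 in CAP2, and TAT1 gave 1.05 ± 0.08 and 1.25 ± 0.01 (SD, n = 2 each). The background of higher calls was 1.19% in EFT2 and 0.858% in TAT1. Both EFT2 calls were lost with the reference pool as a block (0.74, adjusted p = 0.145, and 0.30, adjusted p = 0.799). CAP1 was also higher in SSU72 and RAT1, TETO2 alleles of a transcription phosphatase and a nuclear exonuclease (1.52 ± 0.56 and 1.46 ± 0.40, SD, n = 2 each), and in SXM1, an importin gene (0.86, 1.33, 1.45 and 0.88, mean 1.13, adjusted p = 2.6e-06). CAP2 was not called in these 3 queries, with -0.43 in SSU72, -0.44 in RAT1 and 0.75 in SXM1. The highest CAP1 value, 4.67 in the SNR67 query, comes from 1 screen and 1 feature. CAP2 was also lower in NAP1 (-1.32), FKS1 (-1.30), SNR35 (-1.17) and RPN10 (-1.14) and higher in MOD5 (1.37) and HTZ1 (1.06). Where CAP1 was tested in these 6 queries (all but NAP1, which lies near its locus) it was not called but had the same sign: -0.80 in FKS1, -0.63 in SNR35, -0.66 in RPN10, 0.88 in MOD5 and 0.97 in HTZ1. The NAP1 call was lost with the pool block (-1.09, adjusted p = 0.0508), and all 6 of these CAP2 calls with 1 of the screens left out, as were both TAT1 calls.

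Across 143 queries the profiles of CAP1 and CAP2 correlated with r = 0.63, and each was the other's most similar strain, among 3987 ranked for CAP1 and 3997 for CAP2. Leaving out any 1 query gave r from 0.59 (without SRO9) to 0.71 (without SNR67). After CAP2, the strains most like CAP1 were CDC39 (0.55), TPP1 (0.50), ACA1 (0.49) and YNR061C (0.48). After CAP1, those most like CAP2 were PFY1 (0.48), the profilin gene, SLA1 (0.45), MNN11 (0.44) and DFG5 (0.42). SAC6 and SLA1 correlated with r = 0.62 over 136 queries, from 0.54 without UBP6 to 0.71 without CAP1, and with 0.45 without UBP6, NPR3 and ADE4 together. The other pairs among the 6 ran from -0.24 (SAC6 and MYO5) to 0.45. All these points share arrays and reference pools, and the coefficients are descriptions of the data.

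**Figure D4:**
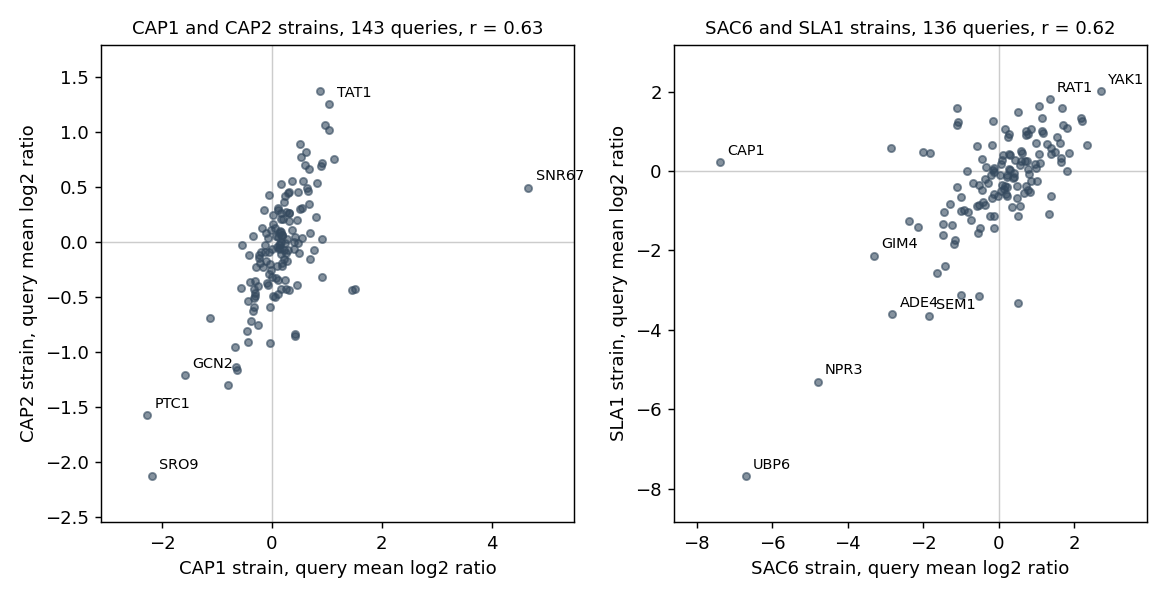
Query mean log2 ratios of CAP1 against CAP2 (left, 143 queries) and of SAC6 against SLA1 (right, 136 queries), 1 point per query. Left, SRO9, PTC1 and GCN2 lie low on both axes and SNR67 lies apart at 4.67 on the CAP1 axis; right, UBP6 and NPR3 lie at -4.80 or below on both axes, and the CAP1 query lies at -7.38 on the SAC6 axis and 0.22 on the SLA1 axis.

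MYO5 had the fewest calls of the 6. It was lower in HCR1, a gene of the translation factor eIF3, where it read -2.69 and -2.60 (mean -2.64, adjusted p = 9.08e-25), with -2.54, -2.84, -2.66 and -2.53 on its features. The other 24 screens against those reference pools ran from -1.24 to 0.77. The second lower call was GCN2 at -1.24 and -1.13 (mean -1.19, adjusted p = 9.1e-07), which makes GCN2 a query with 3 lower strains together with CAP1 and CAP2. SLA1 was lower in HCR1 as well, at -2.12 and -4.42 (mean -3.27, adjusted p = 7.9e-07), against a background of 3.48%, and was not called without the second screen (adjusted p = 0.114). MYO5 was higher in RPL37A (1.01 ± 0.50, SD, n = 2) and in MTC4 (0.99, 0.84 and 1.6, mean 1.14). Without the first screen RPL37A gave 0.66 (adjusted p = 0.331), no longer a call. With the arrays as deposited MTC4 came to 0.07, since 1 of its 3 screens was turned. Of all strains 2.05% were higher in RPL37A and 1.77% in MTC4. The strains most like MYO5 were RLI1 (r = 0.43), YDL129W (0.33), RNA1 (0.32), INP52 (0.31) and ATO3 (0.31), the lowest such values in the set.

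ABP1 was lowest in FKS1, the query that lacks a subunit of the enzyme making the main cell wall glucan. It read -3.42 and -3.0 (mean -3.21, adjusted p = 7.7e-19), and the other 22 screens against the same pools ran from -1.32 to 0.39. FKS1 also lowered SLA1, with discordant screens of -1.33 and -5.31 (mean -3.32), and CAP2, at -1.22 and -1.39 (mean -1.30), against a background of 6.85%. The SLA1 call was lost without the second screen (adjusted p = 0.479). CAP1 had -0.80 ± 0.38 and MYO5 0.27 ± 0.14 (SD, n = 2 each), and SAC6 had 0.51 in the 1 screen that gave a value.

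ABP1 was next lowest in GET3, the ATPase that delivers tail-anchored proteins, at -2.68 and -3.38 (mean -3.03, adjusted p = 3.18e-17), where 5.34% of strains were lower. CAJ1, a DnaJ-family chaperone gene, was run against the same 2 reference pools as NPR3 and ADE4. In CAJ1, with a background of 4.85%, ABP1 read -3.06 and -2.61 (mean -2.84, adjusted p = 1.46e-15). In the TETO2 allele of RAT1 it read -3.19 and -1.91 (mean -2.55, adjusted p = 4.48e-13), while CAP1 (1.46) and SLA1 (1.82) were higher there. RAT1 lowered 7.71% and raised 7.85% of all strains. In IRS4, a regulator of phosphoinositide levels, ABP1 read -2.14 and -2.22 (mean -2.18, adjusted p = 4.97e-10, background 8.86%). PTC1 (-1.55), EPS1 (-1.18) and RNT1 (-1.10) complete its lower calls, and RPL37A was its 1 higher call (1.01); each of these 4 was lost with 1 of the screens left out. The calls in FKS1, GET3, CAJ1, RAT1 and IRS4 were kept in every alternative fit that gave a value. The 5 strains most like ABP1 were HEM15 (r = 0.77), NRG1 (0.76), YDR338C (0.75), MVP1 (0.73) and GTO3 (0.73).

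SLA1 had the longest list of lower queries. Beyond those above it was lower in SEM1, a proteasome lid subunit, at -3.57 and -3.76 (mean -3.66, adjusted p = 2.22e-08, background 10.5%), and in NAP1, a histone chaperone gene, at -3.47 and -2.81 (mean -3.14, adjusted p = 2.25e-06, background 2.05%). Its calls held a pair of nonsense-mediated decay genes, NAM7 (UPF1) at -2.57 and -3.67 (mean -3.12, adjusted p = 2.77e-06, background 4.9%) and NMD2 (UPF2) at -2.19 and -1.49 (mean -1.84, adjusted p = 0.0178, background 6.1%). The class of 7 cytoplasmic mRNA decay queries that holds both gave SLA1 a difference of -1.07 from the other queries, not called (limma, adjusted p = 0.963). RPN10 read -0.32 and -4.48 (mean -2.40, adjusted p = 0.000664, background 7.94%), and without the second screen that call was lost. UBP8, a deubiquitinase gene of the SAGA complex with a background of 4.85%, stood at -2.57 after turning and is 2.57 as deposited. RPL12B (-1.73, background 9.94%) was the last. SLA1 was higher in YAK1 (2.02), RAT1 (1.82), RPL7B (1.65), MTC4 (1.58) and ADD37 (1.48). The last 3 calls were lost with the pool block (1.02, 0.15 and 0.05), and MTC4 and ADD37 also as deposited (0.86 and 0.39). NMD2, UBP8, RPL12B, YAK1 and RAT1 each lost the call when 1 of the screens was left out.

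SAC6 was further lower in HDA1, a histone deacetylase gene (-3.26 and -2.44, mean -2.85, background 1.28%), MAK3, the catalytic subunit of an N-terminal acetyltransferase (-2.63, -2.67 and -1.85, mean -2.38, background 8.34%), and POC4, a proteasome assembly chaperone (-3.14 and -1.14, mean -2.14, background 7.54%). It was higher in YAK1 (2.71), CLB2 (2.33), YJR084W (2.20) and HTB2 (2.18). YAK1, a kinase that acts in the response to glucose, thus gave higher values in both SAC6 (3.11 and 2.31) and SLA1 (2.28 and 1.76), where 3.31% of strains were higher. With the pool block HDA1 (-1.48, adjusted p = 0.294), POC4 (-1.43, adjusted p = 0.231) and HTB2 (0.32, adjusted p = 0.923) were no longer called. None of these 7 SAC6 calls held without the first screen, and none without the second. SAC6 values of -1.47 ± 0.23 in IRS4 and -1.85 ± 0.54 in SEM1 (SD, n = 2 each) did not pass at its residual SD.

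As a class, the 12 proteasome queries (subunits, the transcription factor RPN4, associated enzymes and assembly chaperones) were set against the other queries on query means. SAC6 averaged -1.32 ± 1.96 (SD, n = 12) in them and 0.13 in 128 others, a difference of -1.45 (SE 0.42, adjusted p = 0.0055). SLA1 averaged -1.58 ± 2.24 (SD, n = 12) against -0.18 in 138 others, a difference of -1.40 (SE 0.38, adjusted p = 0.00267). Of all strains 10.9% were called lower in this class. The medians over the 12 queries were -1.36 for SAC6 and -1.01 for SLA1, and 9 and 10 of the 12 means were below 0. UBP6 lies far below the rest, and without it neither strain passed (SAC6 -0.96, adjusted p = 0.0727, and SLA1 -0.85, adjusted p = 0.0681). With the pool block SLA1 still passed (-1.12, adjusted p = 0.0483) and SAC6 did not (-0.86, adjusted p = 0.27). Most of the class queries had a screen against the YEL068C reference, so class and reference overlap in part. Over all screens the median against YEL068C was -0.09 for SAC6 and -0.55 for SLA1, and 0.38 and 0.07 against the mix. With the mixed reference alone the differences were -1.43 and -1.42 (limma, adjusted p = 0.0548 and 0.0319).

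The other 4 strains were not called in the class: CAP1 -0.08 (SE 0.20, adjusted p = 0.808), CAP2 -0.17 (SE 0.17, adjusted p = 0.465), MYO5 -0.04 (SE 0.13, adjusted p = 0.839) and ABP1 0.21 (SE 0.21, adjusted p = 0.478). CAP2 rests on 11 of these queries, since NAS2 lies near its locus. The difference between strains was not tested. Single proteasome queries differed. HUL5 and NAS2 gave SAC6 0.97 and 0.30 and SLA1 0.19 and 0.40. In RPN4, SAC6 read -2.34 and -0.21 and SLA1 -1.78 and 0.10, and neither was called, but with the pool block both were (-3.36, adjusted p = 0.00118, and -2.27, adjusted p = 0.00149).

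**Figure D5:**
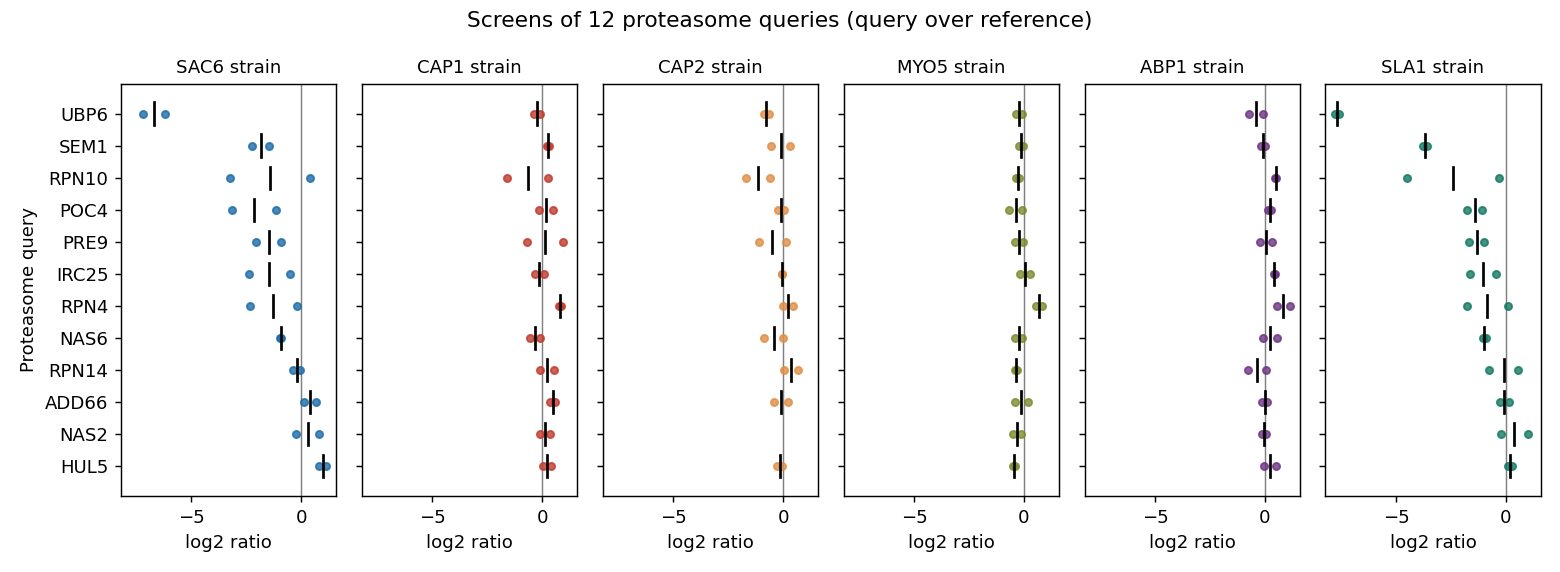
Log2 ratio of query over reference (horizontal axis) in each screen (points) and their mean (bars) for the 12 proteasome queries (rows) in the 6 strains (panels). CAP2 has no points in NAS2, which lies near its locus. SAC6 and SLA1 spread from -6.70 and -7.68 in UBP6 to values above 0, and the means of CAP1, CAP2, MYO5 and ABP1 stay between -1.14 and 0.85.

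Of 12 query classes, the 1 other call was ABP1 in the class of cell wall and surface signalling (FKS1, PTC1, IRS4 and the kinase PBS2). It averaged -1.57 ± 1.63 (SD, n = 4) against -0.02 in 143 others, a difference of -1.56 (SE 0.33, adjusted p = 0.000397), where 4.56% of all strains were lower. PBS2 itself gave 0.64 ± 0.20 (SD, n = 2), so 3 of the 4 means were below 0. With the pool block the difference was -1.18 (adjusted p = 0.0754). SLA1 had a difference of similar size that did not pass, -1.48 (SE 0.65, adjusted p = 0.256). In the other 10 classes limma called 0 of 60 differences of the 6 strains, 6 of them at an unadjusted p under 0.05, and at most 1.28% of all strains in 1 direction. Alternative fits added a call for SAC6 in the class of snoRNAs and their proteins (1.05, adjusted p = 0.0392, with the pool block, against 0.27 and 0.617) and for ABP1 in that of ribosomal proteins (0.58, adjusted p = 0.0485, after quantile normalization, against 0.67 and 0.175).

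The other actin genes were grouped in 4 lists. Among Arp2/3 complex genes and activators 6 of 13 were measured, with 27 lower and 7 higher calls in 775 pairs (3.48% lower). Among endocytic coat genes 11 of 14 were measured, with 35 lower and 18 higher calls in 1460 pairs (2.40%). Filament turnover and patch regulators gave 49 and 20 calls in 2105 pairs (2.33%, 16 of 18 measured), and formin, cable and polarity genes 34 and 12 in 1204 (2.82%, 9 of 17 measured). Beside these shares stand the 2.37% of all pairs. The median number of lower calls per strain was 1 in the Arp2/3 and turnover lists, 2 in the coat list and 5 in the polarity list, against 1 over all strains.

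RVS167 had 26 lower calls, END3, an endocytic adaptor that binds Sla1 and Pan1, 19, ARP2, the Arp2/3 subunit, 13, and VRP1, the yeast WIP homologue, 12. BEM3 had 8, BUD6 and SLM1 7 each, and EDE1, PFY1, AKL1, SPA2 and RGA1 5 each, while MYO3, the paralogue of MYO5, had 1. In UBP6, RVS167 stood at -8.07, END3 at -6.96, ARP2 at -2.93 and EDE1 at -2.83, all called lower, and VRP1 had -8.76 in 1 screen. Of 39 list strains tested in UBP6, 7 were lower, where 12.0% of all strains were, and the list medians ran from -0.12 to 0.03. In RPN4, which lowered 14.7% of strains, RVS167 stood at -5.33 and VRP1 at -2.54, both lower, and no other of the 40 list strains tested was, with END3 at 0.27 and EDE1 at 1.41. Of the strains named here, RVS167, VRP1 and END3 were among those most like SAC6 or SLA1. RVS167 (r = 0.81) and VRP1 (0.76) were the strains most like SAC6, followed by TEF4 (0.71), PKR1 (0.67) and GAS1 (0.67). END3 (0.79) and VRP1 (0.77) were most like SLA1, followed by IRC21 (0.76), FPK1 (0.69) and LIP1 (0.69). Without UBP6, NPR3 and ADE4, RVS167 and END3 kept the first place, at 0.76 and 0.71.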

How the data were processed

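Strain barcodes of query and reference pools were hybridised together to dual-colour Agilent arrays, with the query in Cy3 and the reference in Cy5, per the labels' protocols. The authors deposited 1 log ratio per feature between the channels, read here as log2; how they normalized or centred them, and the base and sign, is not given in the sources used here. Ratios hold no signal level, and precision is set by the number of screens. An array measured 3290 to 4125 strains.

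Per gene symbol, the features with a value on 80% of arrays or more were averaged (8632 of 15744), arrays were centred on their median, and 8 screens hybridised on 2 arrays were averaged. Sign was turned on 17 arrays, where the median over strains up to 25 genes from the query was positive. Gene names and order come from the R64 annotation. limma 3.58.1 in R 4.3.3 fitted a mean per query for each strain, with Benjamini-Hochberg adjustment over 547925 pairs, two-sided. Classes were compared on query means, with adjustment over strains and a minimum difference of 0.5. The fits were run on simulated data with independent normal noise, which do not hold the shared reference pools of these screens. P-values of pairs measure only the spread between screens, which may be technical, and those of classes the spread between query means.

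The members, lists, classes and rules were chosen with earlier results of these data known. The text names, per strain, up to 12 lowest lower and 5 higher queries, queries with at least 3 of 6 calls, the 5 most similar strains over at least 100 shared queries, and the list strains with most lower calls or under -2 in CAP1, UBP6 or RPN4. Other pairs named were chosen after their values were seen. Replicate numbers were not used to pair screens in the main fit. The tried alternatives include the reference pool as a block.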

Additional observations from a re-analysis of the deposited data

How the results depend on the processing

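The 65 called pairs were refitted under 12 alternatives, of which leaving out the UBP6 query and screens numbered 3 or 4 was added after seeing the data. In all alternatives that gave a value, 18 of 44 lower and 2 of 21 higher calls held. A linkage window of 50 genes and the mixed reference alone lost none of the called pairs they could fit (33 lower and 20 higher with the mixed reference). With the arrays as deposited 42 lower calls held and SLA1 in UBP8 reversed to 2.57. With the reference pool as a block, 33 lower pairs had a value and 30 held, and 12 of 19 higher ones. Queries whose 2 pools no other query links to the rest, such as FKS1, GCN2, SRO9 and HCR1, have no value there, which leaves CAP1 with 2 and MYO5 with 0 lower calls. The same fit gave SAC6 10 lower and 9 higher calls and SLA1 17 lower and 3 higher. Quantile normalization kept 30 lower and 16 higher calls, with 3 lower calls for SAC6, 7 for ABP1 and 4 for MYO5. With the mixed reference only, SAC6 had 4. Leaving out screens by number gave 1 to 7 lower calls for SAC6, 1 to 7 for CAP2, 6 to 12 for ABP1, 8 to 13 for SLA1 and 11 to 21 higher calls in all.

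The proteasome difference of SAC6 missed the threshold with the mixed reference (-1.43, adjusted p = 0.0548), the pool block (-0.86), quantile normalization (-0.78, adjusted p = 0.091) and without UBP6 (-0.96). That of SLA1 missed it with quantile normalization (-0.62, adjusted p = 0.132) and without UBP6 (-0.85). Differences near 0 changed sign for CAP1 (0.21 with the mixed reference, 0.01 with quantile normalization), CAP2 (0.04 with the mixed reference) and MYO5 (-0.07 to 0.00 without a screen number). The cause was not tested.

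Averaged over 8778 query pairs, the deviations of same-numbered screens were almost uncorrelated (mean r 0.0196). Single query pairs differed, and in 24.9% of them r was over 0.1, so the mean does not show that screens were independent. The reason for this was not tested. With the replicate block 42 of 44 lower and 18 of 21 higher calls held. The lower calls lost were ABP1 in GIM4 (-0.98) and SAC6 in POC4 (-2.05). A lone screen left in a query is assumed to vary like the others.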
